A study of Mus musculus with 6 samples.

Results

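MHC class I antigen presentation was followed through 10 member genes, B2m, H2-K1, H2-D1, Tap1, Tap2, Tapbp, Psmb8, Psmb9, Psmb10 and Nlrc5, in cardiac co-cultures of mouse cells. They are 10 of 27179 genes of the bulk count table, and all 10 are also among the 28085 gene columns of the cardiomyocyte single-cell table and the 28394 of the fibroblast table. The members were chosen by name, with earlier results of these data known. Their values in the bulk contrast are therefore given as a description, and where members that passed a threshold are counted, the count stands beside the share over all genes and nothing is read from it.

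All cells came from C57BL/6 mice, with no genotype or drug given in the labels. Immature cardiomyocytes of newborn hearts (imCMs) were grown with cardiac fibroblasts of neonatal hearts (NFs) or of adult hearts (AFs), to ask how the age of the fibroblasts bears on the imCMs. RNA of the imCMs was sequenced in bulk in 2 imCM-NF and 2 imCM-AF libraries. Single cells were sequenced in 1 library labelled cardiomyocytes and 1 labelled fibroblasts. The fibroblasts had been passaged in culture, and per the study's methods more AFs than NFs were plated for each imCM. The labels describe a separation of cardiomyocytes by centrifugation, whereas the methods describe dye labelling and sorting, so the imCM fraction depends on how well that step worked.

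MHC class I molecules display peptides from inside the cell to cytotoxic T cells. The immunoproteasome, whose catalytic subunits are encoded by Psmb8, Psmb9 and Psmb10, cuts proteins into peptides, and the Tap1 and Tap2 transporter carries these into the endoplasmic reticulum. There tapasin, encoded by Tapbp, helps to load them onto a heavy chain (H2-K1 or H2-D1) bound to beta-2-microglobulin, the product of B2m. Nlrc5 is a transactivator of these genes, and interferons are classical inducers of the pathway. Cardiomyocytes are known for low class I levels.

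B2m lies on chromosome 2 (GRCm38, 122147687 to 122153082). H2-K1 (chromosome 17, 33996012 to 34000619), Tapbp (33919478 to 33929290), Psmb9 (34182030 to 34187330), Tap1 (34187556 to 34197225), Psmb8 (34198195 to 34201454), Tap2 (34204479 to 34216321) and H2-D1 (35263094 to 35267497) lie in the MHC of chromosome 17. Nlrc5 (94434335 to 94527272) and Psmb10 (105935728 to 105938392) lie on chromosome 8. H2-K1, H2-D1 and the H2-Q and H2-T genes are near-identical in places, so reads may be split among them. In the annotation every member except H2-K1 and H2-D1 overlaps another gene, and the use of strand in counting was not stated, so values of overlapping genes are uncertain as well.

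Promoter sequence was read from RefSeq (GRCm38.p6), which held a window for 8 of the 10 members, as Tap2 and Nlrc5 had none. H2-K1 had another window for a different start (34000348 to 34000597), which is not shown. Both H2-K1 windows lie inside the gene range given above, which reaches further than the starts used for them. The 250 bases before the start are shown for the light and heavy chain genes (B2m, H2-K1 and H2-D1), for 1 immunoproteasome gene past the threshold on the bulk fold change (Psmb8) and for 2 genes under it (Tap1 and Psmb10). Each is written 5′ to 3′ in the direction of the gene, and capitals mark matches to the motifs named after the sequences.
B2m, chr2:122147437-122147686, plus strand: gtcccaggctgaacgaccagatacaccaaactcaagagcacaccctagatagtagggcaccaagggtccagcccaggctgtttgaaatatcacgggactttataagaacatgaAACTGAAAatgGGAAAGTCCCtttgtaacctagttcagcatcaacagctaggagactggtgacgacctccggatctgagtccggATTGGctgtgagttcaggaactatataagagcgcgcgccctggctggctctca
H2-K1, chr17:34000334-34000583, minus strand: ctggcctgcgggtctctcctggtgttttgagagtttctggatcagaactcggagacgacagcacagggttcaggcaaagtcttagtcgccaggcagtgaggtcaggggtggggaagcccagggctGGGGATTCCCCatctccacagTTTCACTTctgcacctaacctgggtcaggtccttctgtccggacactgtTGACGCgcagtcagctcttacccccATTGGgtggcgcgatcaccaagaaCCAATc
H2-D1, chr17:35262844-35263093, plus strand: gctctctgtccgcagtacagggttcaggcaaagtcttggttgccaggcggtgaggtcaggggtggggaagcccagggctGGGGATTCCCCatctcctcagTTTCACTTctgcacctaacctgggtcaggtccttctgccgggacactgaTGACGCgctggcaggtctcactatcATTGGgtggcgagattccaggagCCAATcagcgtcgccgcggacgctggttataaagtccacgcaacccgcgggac
Tap1, chr17:34187306-34187555, plus strand: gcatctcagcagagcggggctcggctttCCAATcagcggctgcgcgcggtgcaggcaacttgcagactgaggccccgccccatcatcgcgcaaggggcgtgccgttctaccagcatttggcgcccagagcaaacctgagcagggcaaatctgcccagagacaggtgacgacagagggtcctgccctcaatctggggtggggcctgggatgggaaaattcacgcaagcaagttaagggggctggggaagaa
Psmb8, chr17:34197945-34198194, plus strand: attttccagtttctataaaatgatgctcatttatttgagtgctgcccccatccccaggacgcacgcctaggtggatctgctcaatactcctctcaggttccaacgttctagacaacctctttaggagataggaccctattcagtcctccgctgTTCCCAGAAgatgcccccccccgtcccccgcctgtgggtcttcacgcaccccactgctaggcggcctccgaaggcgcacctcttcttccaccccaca
Psmb10, chr8:105938393-105938642, minus strand: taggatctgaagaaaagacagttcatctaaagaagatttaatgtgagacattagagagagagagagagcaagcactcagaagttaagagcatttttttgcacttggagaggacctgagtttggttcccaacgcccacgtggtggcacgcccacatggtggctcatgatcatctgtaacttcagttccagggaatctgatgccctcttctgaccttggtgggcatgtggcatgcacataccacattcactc

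Motifs were searched on both strands. The interferon regulatory factor core AANNGAAA was present in 3 members (B2m, H2-K1 and H2-D1), against 21.3% of 32851 promoter windows of the same length. The kappa B consensus was present in the same 3 members, against 7.25% of windows. In H2-K1 and H2-D1 it matched at a pair of positions that overlap in all but 1 base. TGACGC, the core of the X2 box of MHC promoters, was present in H2-K1 and H2-D1, against 6.12% of windows. The gamma-activated site TTCNNNGAA was present in 1 member, Psmb8, against 7.02%. CCAAT, the core of the Y box, was present in 6 of the 8 members with a window (B2m, H2-K1, H2-D1, Tap1, Tapbp and Psmb9), against 33.8%. The matches of Tap1 and Psmb9 are the same bases, read from opposite strands. The H2-K1 window that is not shown had 1 match to CCAAT and the shown one 2. In the window of Psmb10 none of these motifs was found, and matches of different motifs did not overlap. Tap1 and Psmb9 are transcribed head to head, and their 300-base windows, which include bases after the start, have 275 bases in common. A match is a description of the letters, and neither binding nor its absence was measured here.

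In bulk, the class I light and heavy chain genes and Nlrc5 were more abundant in imCM-AF, whereas the transporter genes, Tapbp and Psmb10 differed little. Of 14041 genes tested, 11.1% passed the call (adjusted p of edgeR's quasi-likelihood test under 0.05, log2 fold change over 0.58 in size), 6.15% as higher and 4.99% as lower in imCM-AF. Among the 10 members, 5 passed it as higher (Nlrc5, H2-D1, H2-K1, B2m and Psmb8) and 0 as lower. Both imCM-AF libraries were above both imCM-NF libraries in 9 members, against 32.1% of all tested genes, and the members' median log2 fold change was 0.62 against 0.0011 over all genes. Levels are TMM-scaled CPM (library-scaled counts), and RPKM values divide them by exon length so that genes can be compared. Library depth was between 9278909 and 12088577 counts. Nothing in the labels says whether the libraries of a group came from separate cultures, so errors here reflect the spread between libraries. In the fit that spread is moderated over all tested genes, so an error is not the spread of a single gene's libraries alone.

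B2m, the light chain of every class I molecule, had 443 and 420.5 CPM with NFs and 839 and 913 CPM with AFs. The difference of imCM-AF to imCM-NF came to 1.02 ± 0.12 on the log2 scale (SE, n = 2 per group), or 2.03-fold. The imCM-AF values were far above both imCM-NF values, which lay close together. Per length, B2m was the most abundant member in each library, with 515 and 489 RPKM in imCM-NF and 975 and 1062 RPKM in imCM-AF.

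The classical heavy chain gene H2-K1 had 179.7 and 149 CPM with NFs and 416 and 424 CPM with AFs, a log2 difference of 1.36 ± 0.11 (2.56-fold). H2-D1, the other classical heavy chain gene of this strain, had 156 and 152 CPM and 423 and 407 CPM, a log2 fold change of 1.43 ± 0.10 (2.69-fold). In both heavy chain genes the groups were widely separated, and replicates of a group differed much less than the groups did. Per length, H2-K1 stood at 109 and 89.8 RPKM in imCM-NF and 252 and 256 RPKM in imCM-AF. H2-D1 stood at 74.3 and 72.1 and 201 and 194 RPKM, below H2-K1 in every library.

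The peptide transporter and loading genes differed by small amounts. Tap1 had 67.4 and 56.3 CPM with NFs and 78.4 and 70.9 CPM with AFs, a log2 difference of 0.28 ± 0.10. Tap2 had 38.2 and 37.9 and 50.1 and 46.3 CPM, a log2 fold change of 0.34 ± 0.10. Tapbp had 229 and 201 and 255 and 265 CPM, a log2 fold change of 0.27 ± 0.10. In all 3 genes both imCM-AF libraries were above both imCM-NF libraries, but the gap was small and none reached the fold threshold. Tap1 depended on 1 library, with a log2 difference of 0.15 without imCM-NF replicate 2.

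The immunoproteasome subunit genes were unequal. Psmb8 (LMP7) had 25.6 and 21.3 CPM with NFs and 36.9 and 35.2 CPM with AFs, a log2 difference of 0.63 ± 0.12 just past the threshold. Leaving out imCM-NF replicate 2 brought it to 0.50 and below that threshold. Psmb9 (LMP2) had 4.68 and 3.55 CPM and 5.29 and 7.06 CPM, from 42, 43, 58 and 84 counts, and a log2 fold change of 0.61 ± 0.24. This value moved with single libraries, to 0.81 without imCM-AF replicate 1, where alone of these 3 fits it passed the call, to 0.41 when imCM-NF replicate 2 was left out and to 0.39 when that was done with imCM-AF replicate 2. Psmb10 (MECL-1) had 81.1 and 63.5 CPM and 85.6 and 80.5 CPM, a log2 fold change of 0.20 ± 0.11. The lowest imCM-AF library was below the highest imCM-NF library in Psmb10, so the groups overlapped. Its log2 fold change was 0.04 without imCM-NF replicate 2 and 0.38 without imCM-NF replicate 1.

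Nlrc5, the transactivator, had 5.57 and 4.87 CPM with NFs and 16.7 and 24.3 CPM with AFs, from 50, 59, 183 and 289 counts. Its log2 fold change of 1.99 ± 0.20 (3.96-fold) was the largest of the members. The imCM-AF libraries also differed from each other, although both were well above imCM-NF. Per length it was the least abundant member, with 0.802 and 0.702 RPKM in imCM-NF and 2.40 and 3.50 RPKM in imCM-AF.

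**Figure D1:**
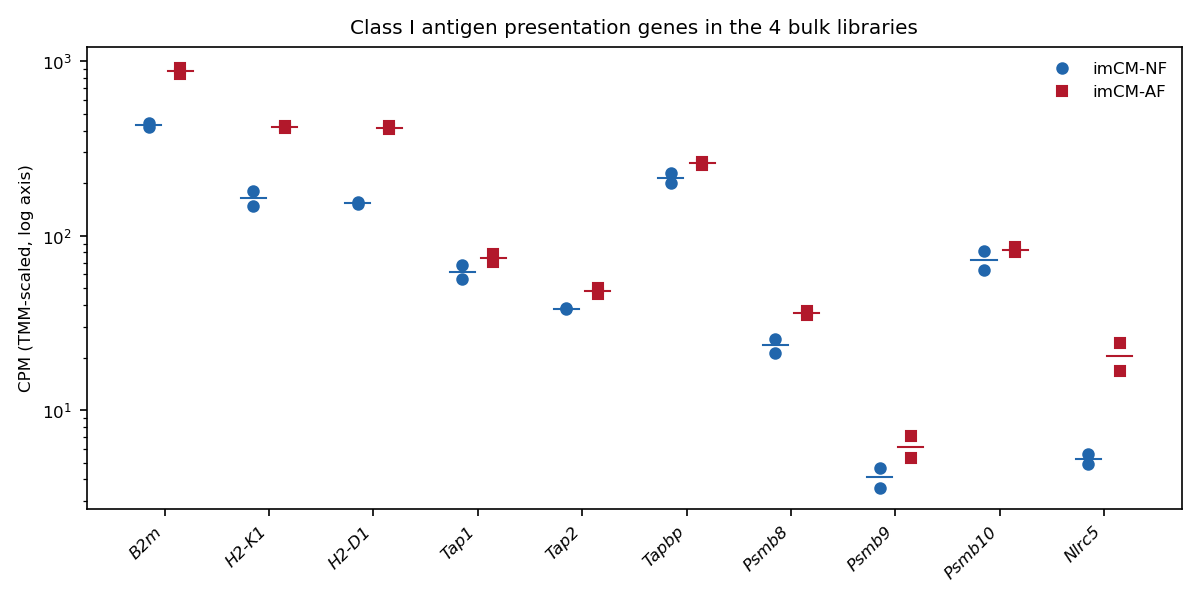
CPM (log axis) of the 10 member genes in each bulk library, with circles for the 2 imCM-NF libraries, squares for the 2 imCM-AF libraries and a line at the mean of each group. B2m, H2-K1, H2-D1 and Nlrc5 show the widest gaps between groups, and only in Psmb10 do the groups overlap.

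Each immunoproteasome subunit takes the place of a constitutive one (Psmb8 that of Psmb5, Psmb9 that of Psmb6, Psmb10 that of Psmb7). Psmb5 stood at 92.6 and 91.8 CPM with NFs and 77.8 and 76.5 CPM with AFs, a log2 difference of -0.26 ± 0.09 (edgeR adjusted p 0.0448, under the fold threshold). For Psmb6 the log2 difference was -0.21 ± 0.10 (edgeR adjusted p 0.117) and for Psmb7 it was 0.01 ± 0.09 (edgeR adjusted p 0.957). Per length, Psmb8 made up 13.3% and 11.4% of the Psmb8 and Psmb5 pair in imCM-NF and 20.8% and 20.3% in imCM-AF. Psmb9 made up 1.59% and 1.26% of its pair in imCM-NF and 2.13% and 2.76% in imCM-AF. Psmb10 made up 33.5% and 27.4% in imCM-NF and 34.2% and 32.6% in imCM-AF. The share of Psmb8 and Psmb9 was higher in both imCM-AF libraries, whereas that of Psmb10 overlapped.

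Among other genes of the pathway, 7 class I heavy chain genes and 3 genes of interferon signalling passed the call as higher. No gene of the general machinery passed it. Of 16 other class I and class I-like genes, 12 were tested and 7 passed the call as higher, against 6.15% of all tested genes. The median log2 fold change over the 12 was 0.90. H2-T23, which encodes the Qa-1 heavy chain, rose from 23.5 and 19.2 to 46.3 and 45.2 CPM (log2 fold change 1.11 ± 0.12, edgeR adjusted p 3.4e-06). H2-Q4 rose from 48.7 and 42.0 to 89.1 and 85.3 CPM (0.95 ± 0.10, edgeR adjusted p 3.8e-06), and H2-T22 from 39.3 and 29.4 to 61.8 and 61.6 CPM (0.86 ± 0.12, edgeR adjusted p 5.9e-05). In these 3 genes the groups did not overlap. The other 4, H2-Q6, H2-Q7, H2-T10 and H2-T24, had at most 6.84 CPM in any library and log2 fold changes of 3.71 ± 0.40, 2.02 ± 0.32, 1.93 ± 0.37 and 1.89 ± 0.35, with edgeR adjusted p of 4.5e-06, 2.2e-04, 0.00122 and 8.3e-04. Fcgrt, which encodes the heavy chain of the neonatal Fc receptor, was lower in both imCM-AF libraries, with 67.4 and 76.1 CPM with NFs and 51.0 and 46.3 CPM with AFs (-0.56 ± 0.10, edgeR adjusted p 6.2e-04, under the fold threshold).

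Of 15 transcription factors of class I genes and interferon signalling, 14 were tested and 3 passed the call as higher, among them Irf1 and Stat2. The median log2 fold change over the 14 was 0.14. Irf1, a transcription factor induced by interferons, rose from 36.8 and 34.9 to 67.5 and 74.4 CPM (log2 fold change 0.99 ± 0.10, edgeR adjusted p 2.2e-06). Stat2, a signal transducer of type I interferons, rose from 79.1 and 55.8 to 127 and 146 CPM (1.03 ± 0.13, edgeR adjusted p 2.5e-05). Rela and Nfkb1, which encode subunits of NF-kappa B, had log2 fold changes of -0.51 ± 0.09 and -0.33 ± 0.10 (edgeR adjusted p 7.4e-04 and 0.0179), under the fold threshold and lower in both imCM-AF libraries. No tested gene passed the call among 7 loading chaperones and peptidases (median log2 fold change -0.14), 14 constitutive 20S subunits (-0.17), 6 proteasome activators and assembly genes (0.15), 4 interferon receptor genes (-0.21) or 3 MHC class II genes (0.27). By the adjusted p alone, 3 of the constitutive subunits, 1 of the activators and 2 of the receptors were under the threshold. Over all genes it was 3789 of 14041 tested, so nothing is read from these counts. Of the 14 constitutive subunits, 10 were lower in both imCM-AF libraries than in both imCM-NF libraries, against 33.8% of all tested genes. The interferon genes were not tested, as Ifng had 0 counts in the 4 libraries and Ifnb1 had 23 in all.

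Markers of other cells were also measured in the imCM libraries, in which fewer cells of a type and less RNA per cell cannot be told apart. The summed level of 14 cardiomyocyte markers was 50171 and 36161 CPM with NFs and 43652 and 47956 CPM with AFs. Markers of fibroblasts summed to 17677 and 19405 CPM with NFs and to 12254 and 9710 CPM with AFs. Of these 12 markers, 8 passed the call as lower and 0 as higher, with a median log2 fold change of -0.73. Endothelial markers summed to 1532 and 1636 CPM against 1193 and 1081 CPM. Of these 12 markers, 5 passed the call as lower and 0 as higher, with a median log2 fold change of -0.50. Macrophage markers summed to between 66.2 and 91.4 CPM in the 4 libraries, and lymphocyte markers to at most 2.94 CPM. Of the 11 macrophage markers tested, 2 passed the call as lower, with a median log2 fold change of -0.28. The part of these cells in the levels of the members was not tested.

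In the single-cell data, each nanowell received a name, and UMIs (unique molecular identifiers, 1 per captured transcript) were summed over the wells of a name. The names are read here as AFNCM and NFNCM for imCMs grown with AFs or NFs, and AF and NF for the fibroblasts of those co-cultures. NCM0, AF0 and NF0 name wells of the same cell kinds, but the sources used here do not define the 0. After filtering, 515 AFNCM, 523 NFNCM and 258 NCM0 wells remained in the cardiomyocyte library, and 219 AF, 256 NF, 170 AF0 and 306 NF0 wells in the fibroblast library. The median depth was between 16044.5 and 38627 UMIs per well. A number in the name marks 3 sources each of AFNCM and NFNCM and 2 of each other kind. With 1 library of each kind there is no test, so CPM values of the summed UMIs are given with exact Poisson 95% intervals, which cover counting error only, and with the values of the sources. The 2 libraries share 269 well barcodes.

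Wells did not always hold the cell that their name gives. By clustering without the members, 357 of 515 AFNCM wells, 419 of 523 NFNCM wells and 235 of 258 NCM0 wells were cardiomyocyte-like, and 98, 80 and 16 were fibroblast-like. Of the fibroblast wells, 159 of 219 AF, 177 of 256 NF and 209 of 306 NF0 wells were fibroblast-like. Of 170 AF0 wells, 165 fell in a cluster to which the marker lists gave no name and which was led by the predicted genes Gm10800 and Gm10801, so AF0 stood apart from the other names. The cardiomyocyte marker gene Tnnt2, which encodes cardiac troponin T, had 219 CPM in AF, 1718 in NF, 146 in AF0 and 2171 in NF0 wells. Cardiomyocyte marker RNA was thus higher in the wells of neonatal than of adult fibroblasts.

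Grown with AFs, imCM wells held more UMIs of nearly all members than those grown with NFs. Of 9 members with at least 5 CPM in AFNCM or NFNCM, 9 were at least 2-fold higher in AFNCM, against 8.86% of genes past the same floor. Tap1, Tap2, Psmb8 and Nlrc5 passed that floor through AFNCM alone. For them the floor itself favours a higher level in AFNCM, so nothing is read from the count. Every AFNCM source was above every NFNCM source for 8 of these 9 members, against 15.1% of genes. The exception was H2-D1, and Psmb9 stayed under the floor.

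B2m had 1413 CPM (1394 to 1432) in AFNCM and 551 CPM (539 to 564) in NFNCM wells, a ratio of 2.56-fold (2.495 to 2.63). The AFNCM sources had 1111, 1528 and 1486 CPM, the NFNCM sources 803, 429 and 454 CPM and the NCM0 sources 366 and 245 CPM. The lowest AFNCM source was above the highest NFNCM source, and both NCM0 sources were below all of these. For H2-K1 the AFNCM sources had 43.7, 75.4 and 105 CPM and the NFNCM sources 23.02, 26.1 and 17.5 CPM, a ratio of 3.59-fold (3.15 to 4.09). For H2-D1 they had 64.4, 121 and 155 and 74.6, 26.3 and 31.2 CPM, a ratio of 2.84-fold (2.58 to 3.12). In H2-D1 one NFNCM source reached into the AFNCM range, and 119 of the 557 H2-D1 UMIs of NFNCM came from a single well.

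Tap1 had 6.44, 11.7 and 22.6 CPM in the AFNCM sources and 0.759, 1.34 and 0.866 CPM in the NFNCM sources, a ratio of 14.8-fold (8.47 to 28.2). Tapbp had 71.4, 99.2 and 108 and 43.5, 33.2 and 32.5 CPM, a ratio of 2.66-fold (2.39 to 2.96). Tap2 was sparse, with 81 UMIs in AFNCM and 15 in NFNCM, a ratio of 4.67-fold (2.67 to 8.74). The loading genes thus separated the wells by fibroblast age, with wide intervals for the transporter genes. In bulk the same contrast was much smaller, at 1.21-fold for Tap1, 1.27-fold for Tap2 and 1.21-fold for Tapbp. The reason for this difference was not tested.

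Psmb8 had 25.8, 26.1 and 38.4 CPM in the AFNCM sources and 5.57, 1.78 and 0.866 CPM in the NFNCM sources, a ratio of 11.8-fold (8.35 to 17.3). Its difference in bulk was 1.54-fold. In NCM0 the Psmb8 sources had 12.4 and 0 CPM, and 20 of the 29 UMIs came from 1 well. Psmb10 had 157, 155 and 146 CPM in AFNCM, 68.6, 67.5 and 76.4 CPM in NFNCM and 118 and 101 CPM in NCM0. The AFNCM sources of Psmb10 were highest and the NFNCM sources lowest, with NCM0 between them. Psmb9 had 74 UMIs in AFNCM and 27 in NFNCM wells, under the floor of 5 CPM.

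Nlrc5 had 90 UMIs in AFNCM (5.97 CPM (4.80 to 7.33)), 1 in NFNCM and 4 in NCM0 wells. Its ratio of AFNCM to NFNCM was 77.9-fold (13.6 to 3111), and the AFNCM sources had 16.2, 1.60 and 3.91 CPM. The 90 UMIs came from 17 wells, and 1 well held 26.7% of them. Within AFNCM, fibroblast-like wells had 23.1 CPM and cardiomyocyte-like wells 0.505 CPM. In cardiomyocyte-like wells Nlrc5 was near the limit of detection, with 0.102 CPM in NFNCM and 0.587 CPM in NCM0.

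Against NCM0, 8 of 9 members past the floor were at least 2-fold higher in AFNCM (11.1% of genes) and all 9 were higher in every source (21.4% of genes). In NFNCM, 0 of 5 members past the floor were at least 2-fold higher than in NCM0 (4.42% of genes). For B2m the ratio of NFNCM to NCM0 was 1.88-fold (1.78 to 1.98), and for Psmb10 it was 0.659-fold (0.595 to 0.731), with every NFNCM source below both NCM0 sources. Tap1, Tap2, Psmb8 and Nlrc5 passed the floor through AFNCM alone against NCM0 too. The comparisons with NFNCM and with NCM0 share the AFNCM wells.

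**Figure D2:**
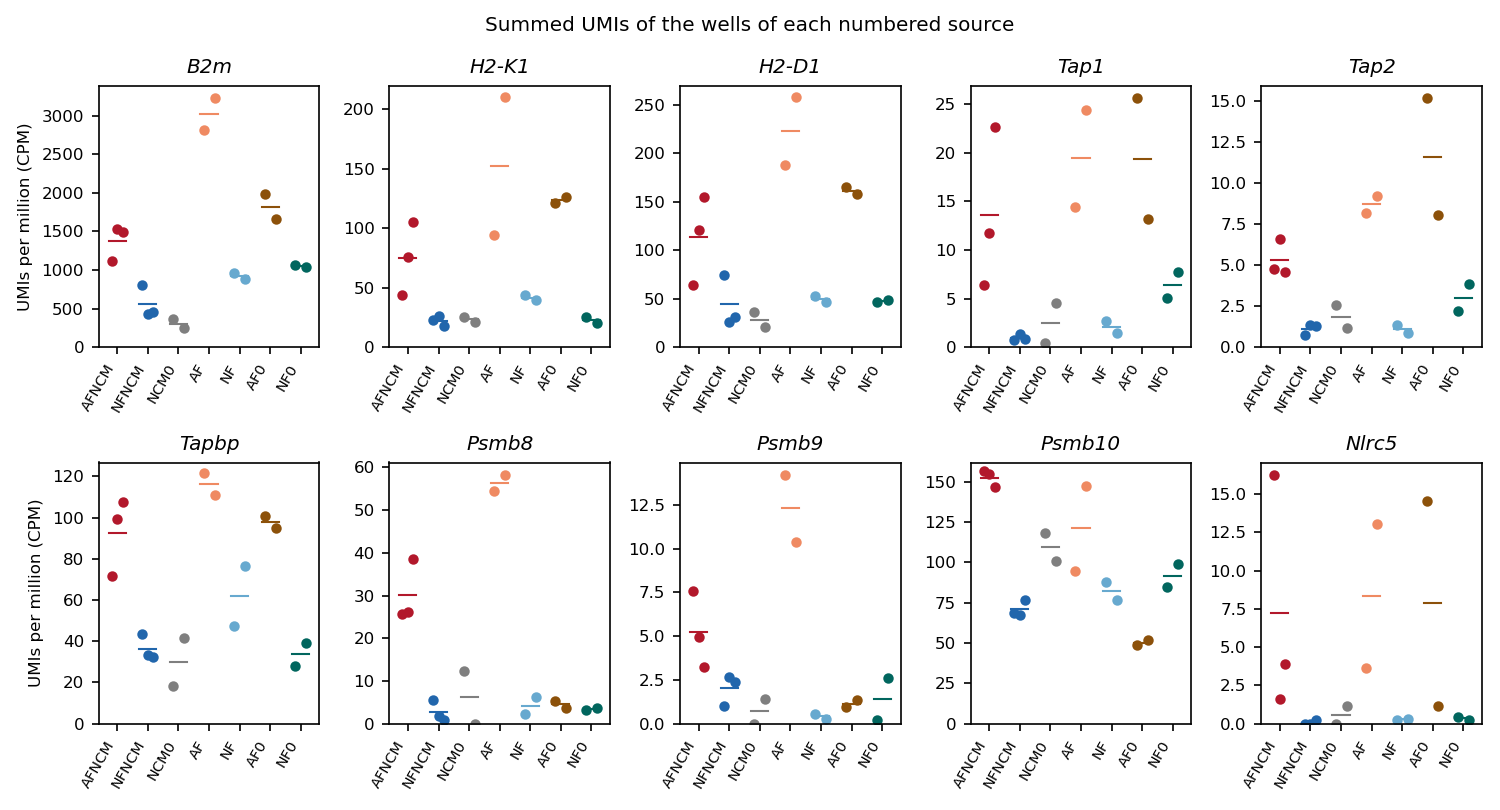
CPM of UMIs (linear axes from 0) of each member in every numbered source of the 7 well names, with a line at the mean of the sources. The AFNCM and AF sources are above the NFNCM and NF sources in most panels, and Psmb8 is high only in AFNCM and AF.

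Other cells were part of the AFNCM wells. Summed over 12 markers, fibroblast RNA was 3220 CPM in AFNCM, 1491 CPM in NFNCM and 1244 CPM in NCM0 wells, with no marker at 0. Endothelial markers summed to 519, 139 and 79.2 CPM, and macrophage markers to 545, 764 and 421 CPM. Lymphocyte markers were near 0, at 0.6 CPM or less. Fibroblast and endothelial RNA was higher in AFNCM, whereas the macrophage markers did not follow the class I genes. In bulk, by contrast, fibroblast and endothelial markers summed to less in imCM-AF than in imCM-NF. The part of these cells in the result was not tested.

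In cardiomyocyte-like wells alone, levels of B2m and the heavy chains were lower, but the difference by fibroblast age was still present. B2m stood at 879 (861 to 898) CPM in AFNCM, 243 (233 to 253) CPM in NFNCM and 199 (187 to 212) CPM in NCM0. By source, these wells had 502, 1027 and 978 CPM in AFNCM, 231, 209 and 283 CPM in NFNCM and 226 and 180.0 CPM in NCM0. Every AFNCM source was above every NFNCM and NCM0 source. H2-D1 stood at 66.1, 10.97 and 15.9 CPM, in that order, and H2-K1 at 58.6, 12.8 and 21.7 CPM. Psmb8 stood at 15.2, 1.22 and 3.92 CPM and Tapbp at 89.0, 34.2 and 32.9 CPM.

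The cardiomyocyte-like wells of AFNCM and NFNCM fell mostly in different clusters. One cluster held 118 AFNCM wells of 124 in all, and another held 281 NFNCM but 46 AFNCM wells. Within this last cluster, B2m stood at 444 CPM in AFNCM and 94.0 CPM in NFNCM. In the 3 further clusters with at least 10 wells of both kinds, B2m stood at 1777, 1320 and 841 CPM in AFNCM and at 550, 849 and 333 CPM in NFNCM, in the same order. The cluster with 1777 CPM was shallow, with a median of 4916 UMIs per well. AFNCM was thus higher within each of these clusters.

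Fibroblast markers were also higher in the cardiomyocyte-like wells of AFNCM, at 1430 CPM in sum, than in those of NFNCM (657 CPM) or NCM0 (799 CPM). Only 23 AFNCM, 83 NFNCM and 15 NCM0 cardiomyocyte-like wells held no UMI of any fibroblast marker, and their median depth was 6667, 5567 and 12278 UMIs. In these wells B2m stood at 410 CPM (327 to 507), 161 CPM (137 to 188) and 127 CPM (88.6 to 175). H2-D1 and H2-K1 were down to 3 UMIs each in AFNCM, and Tap1, Psmb8, Psmb9 and Nlrc5 had none. A ratio of AFNCM to NFNCM could be formed for 4 members. B2m, Tapbp and H2-D1 were at least 2-fold higher, while Psmb10 had a log2 ratio of -0.15. The ratio of H2-D1 rested on 3 against 4 UMIs with overlapping intervals, and that of Tapbp on 47 against 20 UMIs. No share over all genes is given for these wells, so nothing is read from the count. These wells were chosen after seeing the data, and at this depth a marker count of 0 does not show that fibroblast RNA was absent from them.

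In the fibroblasts of the co-cultures, adult wells were again higher. Of 10 members, 8 were at least 2-fold higher in AF than in NF (16.2% of genes), and all 10 were higher in both AF sources than in both NF sources (28.9% of genes). Tap1, Tap2, Psmb8, Psmb9 and Nlrc5 passed the floor through AF alone, so nothing is read from these counts. B2m had 2819.9 and 3235 CPM in the AF sources and 964 and 879.9 CPM in the NF sources, a ratio of 3.26-fold (3.18 to 3.35). H2-D1 had 188 and 258 CPM and 53.1 and 46.1 CPM, a ratio of 4.43-fold (3.96 to 4.98). H2-K1 had 94.6 and 209.8 and 43.4 and 39.7 CPM, a ratio of 3.58-fold (3.15 to 4.07). AF wells had the highest levels of these 3 genes of all 7 well names. For B2m the descending order was AF, AF0, AFNCM, NF0, NF, NFNCM and NCM0, and the sources of neighbours in this order did not overlap.

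The immunoproteasome gene Psmb8 had 54.5 and 58.2 CPM in AF and 2.16 and 6.17 CPM in NF, a ratio of 13.8-fold (9.49 to 20.8). Psmb9 had 109 UMIs in AF and 3 in NF wells, a ratio of 29.4-fold (9.81 to 145). Psmb10 had 94.8 and 147 and 87.6 and 76.4 CPM, a ratio of 1.45-fold (1.31 to 1.61). Psmb10, which is abundant in both, and Tapbp (1.90-fold, 1.70 to 2.13) were the members under 2-fold. The ratio was 9.08-fold (5.35 to 16.6) for Tap1, 7.70-fold (3.72 to 18.5) for Tap2 and, with 71 against 2 UMIs, 28.8-fold (7.68 to 242) for Nlrc5.

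In fibroblast-like wells only, B2m stood at 3052 CPM in AF and 952 CPM in NF, and Psmb8 at 59.2 and 3.70 CPM. Nearly all of those of AF fell in one cluster, and those of NF in another pair. Endothelial-like wells, of which there were 14 in AF and 25 in NF, had 2731 and 832 CPM of B2m. The direction was thus the same in both groups of wells, but the endothelial-like wells were not free of fibroblast RNA. Their fibroblast markers summed to 5426 CPM in AF and 2047 CPM in NF, beside 4018 and 2016 CPM of endothelial markers. The part of fibroblast RNA in their B2m level was not tested. Summed over all wells, fibroblast markers were at 10172 CPM in AF and 4081 CPM in NF, and macrophage markers at 69.5 and 282 CPM.

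**Figure D3:**
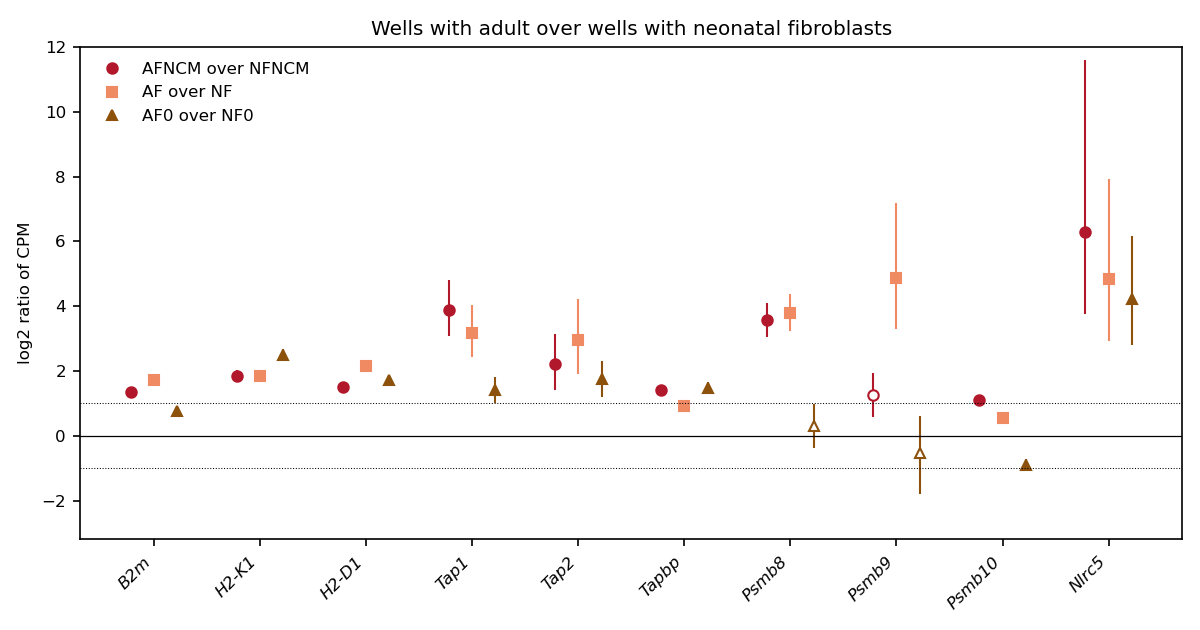
Log2 ratio of CPM of each member for AFNCM over NFNCM, AF over NF and AF0 over NF0 wells, with 95% intervals for counting error, open symbols for members under 5 CPM in both and dotted lines at 2-fold. Log2 ratios lie above 0 except for Psmb10 and Psmb9 in AF0 over NF0.

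In the wells named with a 0, AF0 was higher than NF0 for the heavy chains and transporter genes but not for the immunoproteasome. AF0 is a name here, since 165 of its 170 wells were in a cluster without a cell class. Of 8 members past the floor, 6 were at least 2-fold higher in AF0 than in NF0 (13.8% of genes), 7 were higher in both sources (31.1% of genes) and 1, Psmb10, was lower in both (25.3% of genes). Tap2 and Nlrc5 passed the floor through AF0 alone. B2m had 1984 and 1660.2 CPM in AF0 and 1065 and 1042 CPM in NF0, a ratio of 1.70-fold (1.66 to 1.74). H2-K1 had 121 and 127 and 25.3 and 20.3 CPM, a ratio of 5.62-fold (4.91 to 6.45). H2-D1 had 165 and 158 and 46.9 and 49.1 CPM, a ratio of 3.32-fold (3.02 to 3.67). H2-K1 thus showed the widest gap of these 3 genes. Marker sums differed as well. Cardiomyocyte markers summed to 275 CPM in AF0 and 5259 CPM in NF0, and fibroblast markers to 4508 and 5873 CPM. Endothelial markers summed to 585 and 186 CPM and macrophage markers to 114 and 779 CPM, and the part of these cells in the result was not tested.

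Psmb8 had 5.38 and 3.63 CPM in AF0 and 3.27 and 3.56 CPM in NF0, and Psmb9 had 10 and 21 UMIs, so both genes were under the floor. Psmb10 had 48.7 and 51.6 and 84.7 and 98.8 CPM, a ratio of 0.540-fold (0.482 to 0.605). Tap1 had 25.6 and 13.2 and 5.02 and 7.77 CPM, a ratio of 2.65-fold (2.01 to 3.52). Nlrc5 had 14.5 and 1.15 CPM in the AF0 sources and 1 well held 63.5% of its 52 UMIs. Most of the Nlrc5 signal in AF0 thus lay in that well.

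Between AF and AF0 wells, the immunoproteasome genes differed most. Of 10 members, 3 were at least 2-fold higher in AF than in AF0 (14.5% of genes), namely Psmb8 (13.1-fold, 9.35 to 19.0), Psmb9 (10.4-fold, 5.46 to 22.3) and Psmb10 (2.37-fold, 2.11 to 2.66). Psmb8 and Psmb9 passed the floor through AF alone. The ratio was lower for B2m (1.69-fold, 1.66 to 1.73) and H2-D1 (1.37-fold, 1.28 to 1.47), while Tap1 (1.07-fold, 0.854 to 1.34) and Tap2 (0.807-fold, 0.587 to 1.11) had overlapping sources. Between NF and NF0, 0 of 6 members past the floor were at least 2-fold higher (5.53% of genes) and 1 was at least 2-fold lower (11.9% of genes). That member was Tap1, with 2.70 and 1.47 CPM in NF and 5.02 and 7.77 CPM in NF0, and its direction turned when wells were thinned to equal depth. Tap1 passed the floor through NF0 alone. Stat2 and Irf9 were also higher in both AF sources than in both AF0 sources, by 3.18-fold (2.61 to 3.91) and 2.06-fold (1.63 to 2.61). They belong to the list of transcription factor and signalling genes, of which 13 were past the floor. Of these 13, 4 were higher in both AF sources (28.2% of genes) and 3 lower in both (30% of genes), so nothing is read from the list.

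Shares of the subunit pairs show the same contrast. By UMIs, which are not corrected for length, Psmb8 made up 28.6% (26.4% to 30.7%, exact binomial interval) of the Psmb8 and Psmb5 pair in AF, 2.07% in NF, 2.22% in AF0 and 1.76% in NF0. In the cardiomyocyte library it made up 13.3% (12.2% to 14.5%) in AFNCM, 1.26% in NFNCM and 2.44% in NCM0. Psmb9 made up 2.06% of its pair in AF and at most 0.696% in the other well names. Psmb10 made up most of its pair by UMIs in 6 of the 7 names, from 62.4% in NF to 84.4% in AFNCM, but 39.6% in AF0. The 14 constitutive subunits had a median log2 ratio of AFNCM to NFNCM of 0.025, against 0.12 over all genes past the floor. Of these subunits 0 were at least 2-fold higher (8.86% of genes) and 0 at least 2-fold lower (1.86% of genes).

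**Figure D4:**
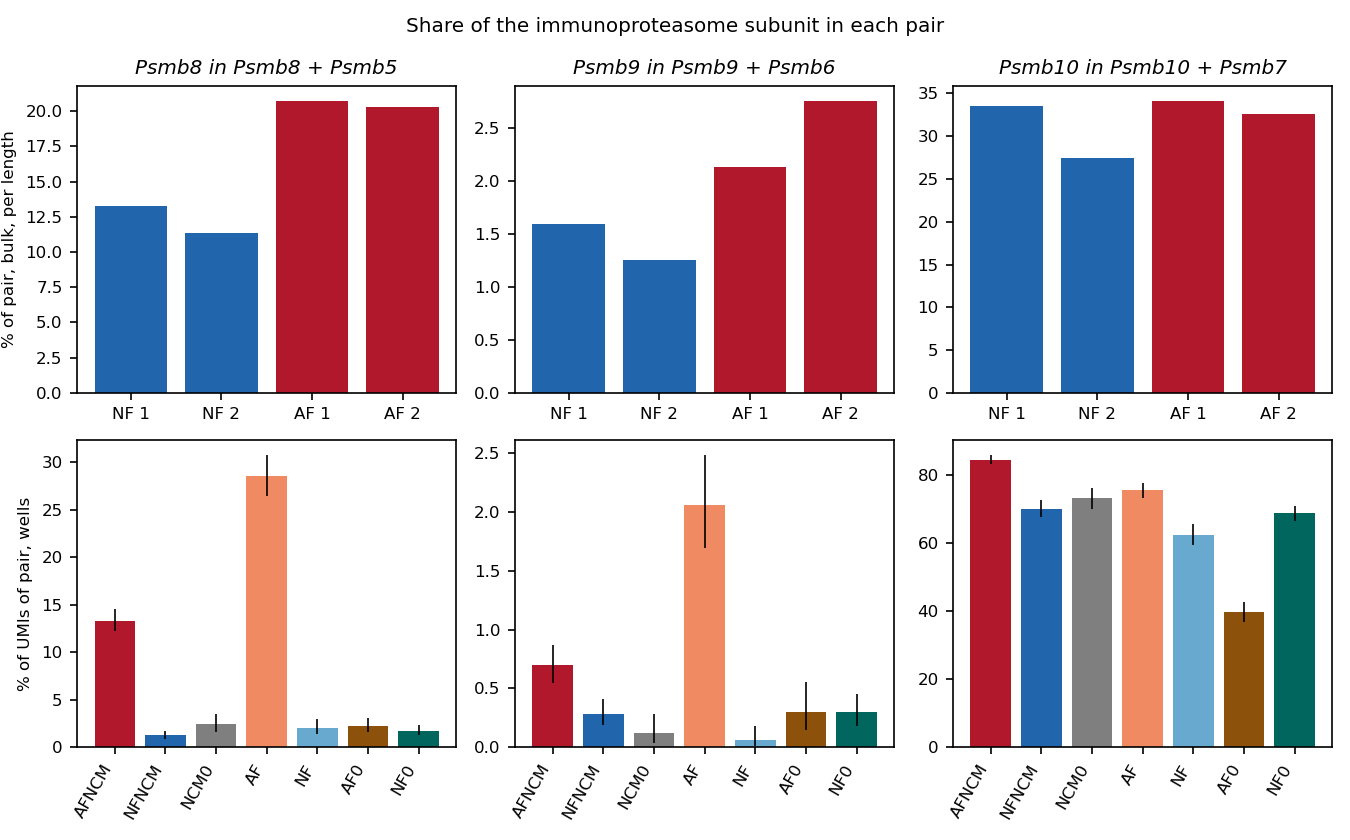
Share of the immunoproteasome subunit in each subunit pair, per length in the 4 bulk libraries (upper row) and by UMIs in the 7 well names with exact 95% intervals (lower row), each axis from 0. Psmb8 reaches 28.6% in AF and 13.3% in AFNCM wells and at most 2.44% in the other well names.

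Most AFNCM wells, in which wells of all cell classes are counted, held B2m. Wells were thinned to 5000 UMIs, which left 438 AFNCM, 410 NFNCM, 215 NCM0, 208 AF, 223 NF, 169 AF0 and 288 NF0 wells. B2m had at least 1 UMI in 90.6% of AFNCM wells (93.4% before thinning), 46.1% of NFNCM wells (61.4%) and 43.7% of NCM0 wells (67.4%). The median was 6 B2m UMIs in AFNCM and 0 in both NFNCM and NCM0. In fibroblast wells the medians were 13 in AF, 4 in NF, 9 in AF0 and 4 in NF0, and B2m was detected in between 86.5% and 100% of wells. H2-D1 was detected in 34.0% of AFNCM, 8.29% of NFNCM, 51.0% of AF and 18.4% of NF wells. Psmb8 was detected in 11.6% of AFNCM wells (21.0% before thinning) and 16.3% of AF wells (38.8%). In NFNCM it was detected in 0.73% of wells (2.49% before thinning). In NF it was detected in 0 of 223 thinned wells, which at this depth allows up to 1.64% (exact binomial), and in 4.69% before thinning. No well type in these libraries is known to lack class I, so free RNA could be judged from control wells only, of which 5 negative wells of the fibroblast library held 8 member UMIs among 3587 and those of the cardiomyocyte library 0 among 1465. As a share of all UMIs, the 6 of B2m among these 8 were above its level in NF wells, and 1465 UMIs are too few to set a limit below the level in AFNCM. Counted by well, B2m had 0 UMIs in the 5 negative wells of the cardiomyocyte library and 6 in the 5 of the fibroblast library. Positive control wells held 0 B2m UMIs among 19026 in the cardiomyocyte library and 28 among 49439 in the fibroblast library. The part of free RNA in the shares of wells given here was not tested.

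**Figure D5:**
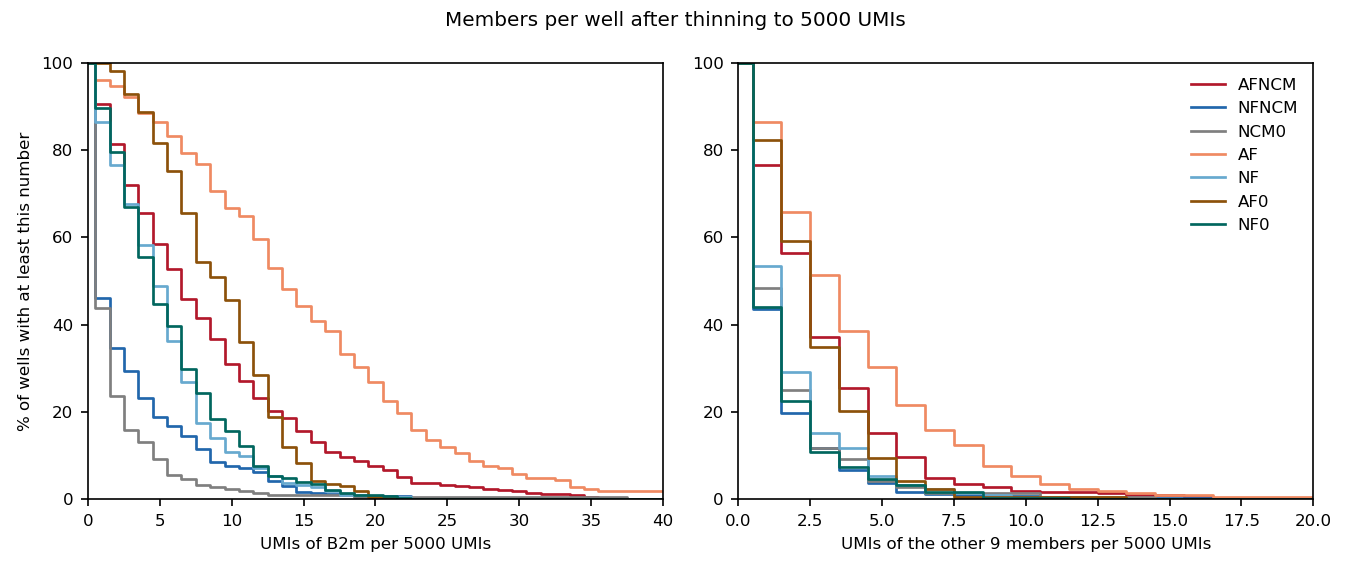
Percent of wells with at least a given number of UMIs per 5000 UMIs, for B2m (left) and the other 9 members together (right), 1 line per well name. The AF line lies furthest to the right for B2m at all but the lowest numbers, and the lines of NFNCM and NCM0, with a median of 0, drop to 46.1% and 43.7% at 1 UMI.

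Members were also compared across the 16 numbered sources, which share 2 libraries and differ in depth, so correlations are given as descriptions. With the mean log2(CPM + 1) of the 10 members, H2-D1 had a Pearson r of 0.917, H2-K1 0.900, B2m 0.890 and Tap1 0.881. Tap2, Tapbp, Nlrc5 and Psmb8 lay between 0.870 and 0.827, Psmb9 at 0.716 and Psmb10 at 0.365. Psmb10 thus had the lowest r of the members. The mean includes each member itself, which by construction raises these values. Among 9073 other genes with at least 20 CPM in a source, 166 had an r over 0.8. The 6 with the highest r were Ly6e (0.972), Oas1g (0.967), Ifi27l2a (0.966), Zbp1 (0.964), Ifi205 (0.963) and Lcn2 (0.962). Oas1g, Ifi27l2a, Zbp1 and Ifi205 are known as interferon-inducible genes, and Lcn2 encodes a lipocalin that binds bacterial iron carriers. Ly6e had 125 CPM in AFNCM, 20.5 in NFNCM, 298 in AF and 32.8 in NF, and its levels put the 7 well names in the same order as B2m.

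Other pathway genes in wells are given by the lists used for bulk. Between AFNCM and NFNCM, at least 2-fold higher levels were found in 4 of 6 other class I genes past the floor (H2-T10, H2-T22, H2-T23 and Hfe, against 8.86% of all genes past it), 3 of 12 transcription factor and signalling genes (among them Irf9 and Stat2), 1 of 7 loading genes (Tapbpl), 1 of 6 proteasome activators (Psme1) and 1 of 4 interferon receptors (Ifnar2). Nothing is read from the lists with 1 such gene. Stat2 had 23.8 CPM in AFNCM and 5.44 CPM in NFNCM, and was 4.38-fold (3.39 to 5.73) higher. Irf1, in contrast, had 17.9 and 21.2 CPM with overlapping sources, although it rose in bulk. Psme1, which encodes a subunit of the PA28 proteasome activator, had 219 and 103 CPM. Between AF and NF, where 16.2% of all genes past the floor were at least 2-fold higher, the higher genes were 5 of 8 other class I genes, 4 of 11 factors (among them Irf9, Stat2 and Nfkb1), Ifnar2 and 1 class II gene, H2-Ab1, which had 61 UMIs in AF and 1 in NF. None of the pathway genes past the floor was at least 2-fold lower in AFNCM than in NFNCM (1.86% of genes) or in AF than in NF (7.27% of genes).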

How the data were processed

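Bulk RNA of 4 imCM libraries and 2 single-cell libraries of C57BL/6 mice were used. The authors deposited raw counts for both. Per their methods, subread placed the bulk reads on mm10, and featureCounts counted the unique ones on RefSeq genes. Single-cell reads passed a barcode and UMI filter, trimming and a contaminant screen, were aligned with STAR and counted on Ensembl genes as UMIs. The submitters' notes name Subread 1.4.6-p1, featureCounts and, for STAR, version 2.5.2b. Their report of each well gives its name, read pairs and alignment.

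The members and all lists were chosen with earlier results of these data known. Bulk genes with a CPM over 1 in at least 2 libraries were compared by edgeR 4.0.16 (R 4.3.3, TMM scaling, quasi-likelihood test, Benjamini-Hochberg adjustment over 14041 genes), and called at an adjusted p under 0.05 and a log2 fold change over 0.58 in size. The SE is the log2 fold change divided by the square root of F. On simulated counts for imCM-AF against imCM-NF (13906 genes), 194 of 200 genes changed by 1.5 on the log2 scale were recovered with 5 false calls. Replicates differed beyond counting noise (chi-square per degree of freedom 8.60 in imCM-NF and 8.42 in imCM-AF). The 4 bulk totals were 9278909, 12088577, 10766124 and 11790263.

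Of 2462 wells other than controls, 2247 were kept, with at least 500 genes, over 50% alignment and UMIs within 2 SD of the mean. Mitochondrial genes were left out, as were the 85 and 79 spike-in columns of the cardiomyocyte and fibroblast libraries. The ratio of summed UMIs carries a 95% conditional binomial interval. A gene entered a comparison with at least 5 CPM in 1 of the names and no ratio was formed from 3 or fewer UMIs on both sides. A gene low in 1 name thus enters only through the name where it is high, so nothing is read from counts of such genes. In simulated wells for AFNCM against NFNCM (10295 genes), 200 of 200 genes set higher were found and 191 of 200 intervals held the true ratio. Doublets were not called, as wells are selected by image per the methods. Clusters (Leiden, leidenalg 0.10.2, 2000 variable genes, 10 components, 30 neighbours, without members or pathway genes) numbered 12. The rule that compares markers with the median cluster was chosen after a first rule left 5 clusters without a name, and class sizes depend on it. Named genes were all members, pathway genes that passed, Psmb5, Psmb6 and Psmb7, and the 6 genes most like the members' mean. Values of 1 gene of these lists are not reported here, while the lists' counts include it.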

Additional observations from a re-analysis of the deposited data

Results flagged for a closer look

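Psmb10 went opposite ways in the 2 comparisons of fibroblast wells. Its log2 ratio was 0.54 in AF over NF, where both AF sources were above both NF sources, and -0.89 in AF0 over NF0, where both AF0 sources were below both NF0 sources. The difference was not tested, since there is 1 fibroblast library. The constitutive partner Psmb7 had 39.0 CPM in AF, 49.5 in NF, 77.1 in AF0 and 42.7 in NF0.

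Negative control wells of the fibroblast library held 8 member UMIs, 6 of them of B2m, among 3587 UMIs in 5 wells, above the limit of 3 counts that a count of 0 allows. Those of the cardiomyocyte library held 0 among 1465. The part of free RNA in the levels of other wells was not tested.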

How the results depend on the processing

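All 10 members were higher in imCM-AF in each of the 13 alternative bulk fits, and B2m, H2-K1, H2-D1 and Nlrc5 passed the call in each. The number of genes called was 3789 by the adjusted p alone, 565 with a log2 fold change over 1, and 879 (without imCM-NF replicate 2) to 1929 with 1 library left out, where a lone library is assumed to vary like the other group. Other pathway genes called were 21 and 6 under the first 2 settings and 9 to 13 with 1 library left out, and members called were 4 to 6. With library totals only, 1005 genes were higher and 575 lower, against 864 and 700. Same-numbered replicates did not deviate together (correlation of differences -0.153), which does not show whether they share more than a number. With the replicate block 1430 genes, 5 members and 10 other pathway genes were called, and with the crossed pairing, added after seeing the data, 1668 genes, 6 members and 10 others. The call of Psmb8 was lost when imCM-NF replicate 2 was left out, and Psmb9 gained one with no expression filter, the crossed pairing or imCM-AF replicate 1 left out.

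In wells, a setting of cardiomyocyte-like wells without a fibroblast marker UMI was added after seeing the data. It gave 3 members (H2-D1 from 3 against 4 UMIs) at least 2-fold higher in AFNCM over NFNCM and 2 over NCM0. Fewer members could be compared in this setting, and Psmb10 turned to -0.15 in AFNCM over NFNCM. NFNCM over NCM0, with 0 such members, gave 1 under no filter or without endothelial-like and macrophage-like wells, and 0 to 2 with a source left out. NF over NF0, also 0, gave 1 in named clusters, thinned wells or without the deepest wells, and 0 or 1 with a source left out. Nlrc5 turned to -0.22 (AFNCM over NCM0, named clusters only) and Tap1 to 0.37 (NF over NF0, wells thinned). For AF0 the named-cluster setting was not run, since AF0 held 1 fibroblast-like well. Depth limits members with few UMIs, such as Nlrc5, Psmb9 and Tap2 with 1, 27 and 15 in NFNCM.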

Other observations

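Across wells thinned to 5000 UMIs, Spearman's rho of B2m with the summed heavy chains H2-K1 and H2-D1 was 0.38 in AFNCM (438 wells), 0.32 in NFNCM (410 wells) and 0.21 in NCM0 (215 wells). In fibroblast wells it was 0.14 in AF, -0.05 in NF, 0.16 in AF0 and 0.00 in NF0. These are descriptions of sparse counts. Wells of mixed cell classes are pooled in each value.

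Class II genes, which mark professional antigen-presenting cells, were scarce. H2-Aa had 7 UMIs in AFNCM and 3 in NFNCM wells and H2-DMb1 had 11.7 CPM in AF0 and 0.739 CPM in NF0. No UMI of Ifng or Ifnb1 was found in AFNCM, NFNCM, AF or NF wells. NCM0 and AF0 wells held 1 UMI of Ifng each, and NF0 wells held 1 of Ifnb1. A count of 0, with 3 UMIs as the limit it allows, corresponds to up to 0.199 CPM in AFNCM.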
